A study of Mus musculus with 12 samples.

Results

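The genes that make and sense prostanoids were examined in cultured mouse peritoneal exudate cells (PECs). The 10 members, chosen by gene symbol, were the cyclooxygenases *Ptgs1* and *Ptgs2*, the terminal synthases *Ptges*, *Ptges2*, *Ptges3*, *Tbxas1* and *Hpgds*, and the receptors *Ptger2*, *Ptger4* and *Ptgir*. Only genes present among the 12850 listed were taken as members, and all 10 passed the filter on low values. The PECs came from C57BL/6 mice injected with thioglycollate, an irritant that draws leukocytes, mostly macrophages, into the peritoneal cavity. WT cells and cells of *Zc3h12a* S513A/S513A (S513A) mice were compared. *Zc3h12a* encodes Regnase-1, an endoribonuclease that cleaves inflammatory mRNAs, and the knock-in, made by CRISPR/Cas9 editing of fertilized eggs, replaces one serine with alanine in every cell of the animal. Cells of each genotype stayed without stimulus (0 hr) or received 100 ng/ml of LPS, the lipopolysaccharide of Gram-negative bacteria, during 4 or 8 hr. There were 2 libraries of polyA RNA for each genotype and time, 12 in all. The labels do not say whether the 2 libraries of a group came from separate mice, so the p values measure the spread between these libraries, which may in part be technical.

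Prostanoids are lipid mediators made from arachidonic acid. Phospholipases A2 release the acid from membranes, the cyclooxygenases PTGS1 (COX-1, present in resting cells) and PTGS2 (COX-2, induced by inflammatory stimuli) convert it to prostaglandin H2, and terminal synthases turn that intermediate into prostaglandin E2, prostaglandin D2, thromboxane A2 or prostacyclin. The products act on G protein-coupled receptors, and in macrophages prostaglandin E2 acts through EP2 and EP4 to raise cyclic AMP.

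Each library held 9525979 to 12439960 reads on the genes listed, and 3 reads, taken as the floor, stood at a log2 CPM (CPM, reads of a gene scaled to a common library size) of -2.04 to -1.30. The SD of the log2 difference between the libraries of a group was 0.16 to 0.40, largest in WT cells at 4 hr. *Zc3h12a* mRNA was at 5.39 and 5.20 log2 CPM in WT and at 4.99 and 5.09 in S513A cells at 0 hr, which is no check of the labels, since a single changed codon need not alter the level. All 7 macrophage markers were listed, with a summed level of 16165 to 26353 CPM. Of 5 eosinophil markers, *Epx*, *Prg2* and *Il5ra* were not listed, and the summed level of *Siglecf* and *Ccr3* was 15.3 to 18.5 CPM at 0 hr, 8.02 to 10.0 CPM at 4 hr and 3.62 to 4.58 CPM at 8 hr.

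The promoters of the 2 genes that rose most with LPS are shown first, and then the 3′ UTR elements of *Ptgs2*. *Ptgs2* (Entrez gene 19225) lies on the + strand of chromosome 1 of GRCm38 (mm10) from 150100031 to 150108234 and has 10 exons. *Ptges* (Entrez gene 64292) lies on the - strand of chromosome 2 from 30889471 to 30931020. The 250 bases before each start site, from RefSeq's GRCm38.p6 annotation, were chr1:150099781-150100030 (+) for *Ptgs2* and chr2:30903298-30903547 (-) for *Ptges*. The start used for *Ptges*, at 30903297, is that of a transcript that begins inside the extent given for the gene, and the same holds for *Ptgs1*, *Tbxas1* and *Hpgds*. One start per member was searched. Capitals mark matches to the C/EBP motif TTGNNNAA on either strand.
Ptgs2 promoter: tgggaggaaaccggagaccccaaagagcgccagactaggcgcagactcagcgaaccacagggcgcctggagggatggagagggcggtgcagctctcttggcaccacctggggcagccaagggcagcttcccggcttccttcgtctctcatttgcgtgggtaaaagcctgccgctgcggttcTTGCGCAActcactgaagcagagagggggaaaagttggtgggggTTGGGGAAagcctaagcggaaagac
Ptges promoter: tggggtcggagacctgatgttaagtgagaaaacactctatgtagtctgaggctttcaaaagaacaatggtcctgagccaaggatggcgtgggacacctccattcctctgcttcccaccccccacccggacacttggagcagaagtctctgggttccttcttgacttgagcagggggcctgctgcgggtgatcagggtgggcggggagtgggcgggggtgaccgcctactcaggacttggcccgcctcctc
The *Ptgs2* promoter held this motif at bases -69 to -62, where it reads the same on both strands, and at -25 to -18. None of the 5 motifs searched on both strands matched in the *Ptges* promoter. The C/EBP motif was found in 5 of the 10 members' promoters (*Ptgs1*, *Ptgs2*, *Ptges2*, *Hpgds* and *Ptger2*) and in 33.3% of 32851 promoters of that length. The TATA box TATAAA and the AP-1 motif TGANTCA were each found in 1 member's promoter, that of *Tbxas1*, and in 12.4% and 6.75% of all promoters. The core of the cyclic AMP response element, TGACG, was in 17.8% of promoters and the NF-kappaB motif in 4.11%, and neither matched in a member's promoter. A match, or its absence from this window, is a description of letters and not of binding.

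The 3′ UTR of *Ptgs2* (2445 bases in the GENCODE M21 model used) held 14 copies of ATTTA, the core of AU-rich elements, which are bound by proteins that control mRNA decay. Of 11504 listed genes with a 3′ UTR, 97.7% had fewer copies, and the median gene had 1. The window of 30 bases with most copies starts at base 12 of the 3′ UTR, at chr1:150105794-150105823 (+), and its 4 copies, some of them overlapping, are in capitals.
Ptgs2 AU-rich window: ccatATTTATTTATTTAtgtgaagaATTTA
The 3′ UTR also held 1 hairpin of the kind Regnase-1 is known to use, with a pyrimidine-purine-pyrimidine loop (capitals) on a stem of 5 base pairs, at chr1:150107458-150107470 (+).
Ptgs2 hairpin: taaacTATgttta
Such a hairpin was found by letters alone in 22.9% of genes, among them *Ptger4* with 1 and *Ptges2* with 3, while the other 7 members had none. *Ptger2* had 6 copies of ATTTA, *Ptger4* 5, *Ptges2* and *Ptges3* 4 each, and *Hpgds* and *Ptgir* 2 each. Such counts grow with the length of the 3′ UTR, and the median gene had 1.29 copies per kilobase. Above it lay *Ptgs2* at 5.73, *Ptger4* at 4.055, *Ptges3* at 3.37 and *Ptger2* at 3.29. Below it lay *Ptges2* at 1.16, *Ptgir* at 1.12 and *Hpgds* at 0.760. *Ptgs1*, *Ptges* and *Tbxas1* had 0 copies.

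LPS raised *Ptgs2*, *Ptges* and *Ptges3*, and left *Ptgir* without a call on the deposited values. It lowered *Ptgs1*, *Hpgds*, *Tbxas1* and the prostaglandin E2 receptors *Ptger2* and *Ptger4*. *Ptges2* was called higher at 4 hr but not at 8 hr. The 4 hr calls of *Ptges2* and *Ptger4* were lost when certain single libraries were left out. At 4 hr against 0 hr, averaged over the genotypes, 4 of 10 members were higher and 5 lower (limma, Benjamini-Hochberg adjusted p under 0.05), where 29.1% of the 11885 genes tested were higher and 26.7% lower. At 8 hr against 0 hr, 3 members were higher and 5 lower, against 24.5% and 21.6% of genes. From 4 to 8 hr, 2 members were lower and 0 higher, where 12.8% of genes were higher and 12.8% lower, and 4 members had an unadjusted p under 0.05. The members' median absolute log2 fold change was 0.91 at 4 hr and 0.81 at 8 hr, against 0.42 and 0.33 over all genes tested. From 4 to 8 hr it was 0.21, against 0.23. In bulk RNA, fewer cells of a type and less RNA per cell cannot be told apart.

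**Figure D1:**
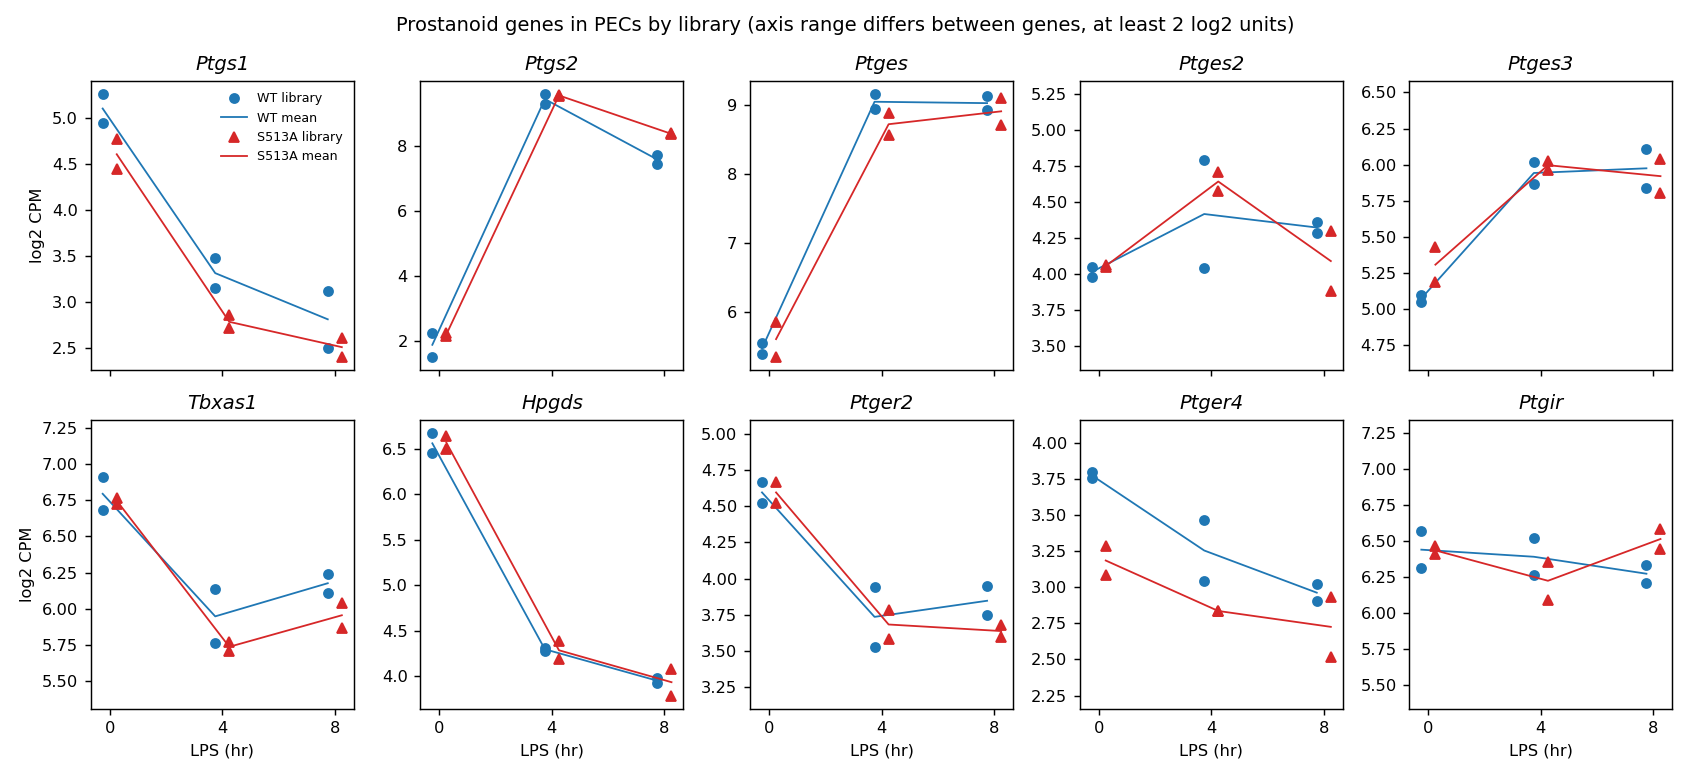
Log2 CPM (vertical axis) of the 10 members at 0, 4 and 8 hr of LPS (horizontal axis), with circles for WT libraries, triangles for S513A libraries and lines through the mean of the 2 libraries of each group. *Ptgs2*, *Ptges* and *Ptges3* lie higher in every LPS library than in any library at 0 hr, and *Ptgs1*, *Hpgds*, *Tbxas1* and *Ptger2* lie lower, while *Ptgir* stays between 6.09 and 6.58.

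*Ptgs2*, the inducible cyclooxygenase, had the largest change of the members. Before stimulation it was at 2.25 and 1.53 log2 CPM in the WT libraries and at 2.26 and 2.17 in the S513A libraries, or 37 to 68 reads. At 4 hr the values were 9.28 and 9.59 in WT and 9.57 and 9.52 in S513A cells, so that every stimulated library lay far above every resting one. By 8 hr, the WT libraries were at 7.45 and 7.71 and the S513A libraries at 8.38 and 8.35, below all 4 libraries of 4 hr. The rise at 4 hr was 173-fold (95% confidence interval 139 to 216, limma adjusted p = 4.1e-11) averaged over the genotypes. At 8 hr it was 60.6-fold (48.7 to 75.4, limma adjusted p = 3.1e-10). From 4 to 8 hr *Ptgs2* changed by -1.52 ± 0.14 (SE) on the log2 scale (limma adjusted p = 4.7e-05).

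*Ptgs1*, the constitutive cyclooxygenase (Entrez gene 19224, chromosome 2, 36216742 to 36258593, + strand), moved the other way. It was at 5.25 and 4.94 log2 CPM in WT and at 4.44 and 4.76 in unstimulated S513A cells. At 4 hr it was at 3.48 and 3.15 in WT and at 2.85 and 2.71 in S513A cells. After 8 hr the WT libraries were at 3.12 and 2.50 and the S513A libraries at 2.41 and 2.61, so that no LPS library reached a resting one. *Ptgs1* was 3.48-fold lower at 4 hr (95% confidence interval 2.74 to 4.43, limma adjusted p = 2.9e-06). At 8 hr it was 4.56-fold lower (3.58 to 5.80, limma adjusted p = 7.7e-07). The difference from 4 to 8 hr was -0.39 ± 0.16 (SE) and was not called (limma adjusted p = 0.098), though it was called without WT 8 hr replicate 1 (-0.54, adjusted p = 0.035).

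Exon length was taken as all annotated exons of a gene joined, which can be longer than any one of its mRNAs. Set beside each other per kilobase of exon, the balance of the 2 cyclooxygenase mRNAs turned over. *Ptgs2* made up 9.59% and 7.37% of the sum of both in the WT libraries at 0 hr and 15.7% and 12.3% in the S513A libraries. Its share was 97.9% to 99.0% in the 4 libraries at 4 hr. At 8 hr it was 94.5% and 96.9% in WT and 98.2% and 97.8% in S513A cells.

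*Ptges* encodes microsomal prostaglandin E synthase 1, the inducible enzyme usually coupled to PTGS2. Its level was 5.56 and 5.40 log2 CPM in WT and 5.36 and 5.87 in S513A cells at 0 hr, and 9.16 and 8.94 in WT and 8.56 and 8.88 in S513A cells at 4 hr. The 8 hr libraries were at 8.93 and 9.13 in WT and at 8.72 and 9.10 in S513A cells, within the range of those of 4 hr. The rise was 10.1-fold at 4 hr (95% confidence interval 8.20 to 12.4, limma adjusted p = 6.8e-09). At 8 hr it was 10.7-fold (8.69 to 13.2, limma adjusted p = 8.4e-09). From 4 to 8 hr *Ptges* differed by 0.08 ± 0.14 (SE) on the log2 scale (limma adjusted p = 0.69), in the interval in which *Ptgs2* fell.

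The other prostaglandin E2 enzymes moved less. *Ptges3* encodes the cytosolic synthase p23, which is also a co-chaperone of HSP90, and was at 5.05 to 5.43 log2 CPM over the 4 libraries of 0 hr, 5.87 to 6.03 over those of 4 hr and 5.80 to 6.11 over those of 8 hr. Its log2 fold change was 0.78 ± 0.10 (SE) after 4 hr and 0.76 ± 0.10 (SE) after 8 hr (limma adjusted p = 4.5e-05 and 7.4e-05), and the resting libraries lay below all others. Reads of *Ptges3* may be shared with a processed pseudogene copy, depending on how the counting treated them.
*Ptges2* encodes microsomal prostaglandin E synthase 2 and was at 3.98 to 4.06 log2 CPM at 0 hr, 4.04 to 4.79 at 4 hr and 3.89 to 4.36 at 8 hr. The rise of 0.49 ± 0.15 (SE) at 4 hr was called (limma adjusted p = 0.017), but the groups overlapped, since WT 4 hr replicate 2 was at 4.04. That call was lost without WT 0 hr replicate 2 (limma adjusted p = 0.0514) or without S513A 4 hr replicate 1 (0.0512). At 8 hr the difference was 0.17 ± 0.15 (SE) (limma adjusted p = 0.39). From 4 to 8 hr it was -0.32 ± 0.15 (SE) (limma adjusted p = 0.15), and -0.51 without WT 4 hr replicate 2, when it was called (0.0078).

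*Hpgds*, the hematopoietic prostaglandin D synthase (Entrez gene 54486, chromosome 6, 65117293 to 65144981, - strand), had the largest fall of the members. It was at 6.45 and 6.67 log2 CPM in WT and at 6.64 and 6.49 in unstimulated S513A cells. At 4 hr it was at 4.28 and 4.31 in WT and at 4.39 and 4.18 in S513A cells, and at 8 hr at 3.92 and 3.98 in WT and at 4.08 and 3.79 in S513A cells. No 2 time points overlapped. *Hpgds* was 4.82-fold lower at 4 hr (95% confidence interval 4.16 to 5.60) and 6.14-fold lower at 8 hr (5.29 to 7.13), with limma adjusted p values of 1.0e-08 and 5.0e-09. The further difference of -0.35 from 4 to 8 hr (limma adjusted p = 0.024) was not called when only the libraries compared were fitted (0.062), or without WT 8 hr replicate 1 (0.081), WT 8 hr replicate 2 (0.058), S513A 4 hr replicate 1 (0.076) or S513A 8 hr replicate 2 (0.077). Eosinophils and mast cells also make this enzyme. The eosinophil sum given above was nearly all *Siglecf*, which went from 15.2 to 18.3 CPM at 0 hr to 2.98 to 4.32 CPM at 8 hr. *Ccr3*, near the floor, was at 0.115 to 0.174 CPM at 0 hr and higher, at 0.237 to 0.647 CPM, at 8 hr. The part of eosinophils in the fall of *Hpgds* was not tested. The 4 listed mast cell markers of 7 summed to 1.76 to 3.84 CPM over all 12 libraries, with *Ms4a2*, *Fcer1a* and *Mcpt4* not listed.

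*Tbxas1*, the thromboxane A synthase, was at 6.68 to 6.91 log2 CPM at 0 hr, 5.70 to 6.13 at 4 hr and 5.87 to 6.24 at 8 hr, so that both stimulated times lay below rest. Its log2 fold change was -0.93 ± 0.10 (SE) after 4 hr and -0.71 ± 0.10 (SE) after 8 hr (limma adjusted p = 1.3e-05 and 0.00014). The difference of 0.22 ± 0.10 (SE) from 4 to 8 hr was not called (limma adjusted p = 0.12), though it was without WT 4 hr replicate 1 (0.32, adjusted p = 0.020). Platelets carry both *Tbxas1* and *Ptgs1*. Of 5 platelet markers, *Itga2b*, *Gp9* and *Gp1bb* were not listed, and the other 2 summed to 0.614 to 1.12 CPM at 0 hr, 1.28 to 3.87 CPM at 4 hr and 2.76 to 6.27 CPM at 8 hr, and their part in the levels of both members was not tested. *Tbxas1* overlaps the listed gene *Hipk2* on the opposite strand, with 0 shared exonic bases.

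Shares among terminal synthases that draw on the same intermediate depend on which are summed. *Ptges* took 27.6% to 36.7% of the summed level per kilobase of *Ptges*, *Tbxas1* and *Hpgds* at 0 hr, a sum without *Ptges2*, *Ptges3* and *Ptgis*. The share was 91.2% to 93.4% at 4 hr and 92.1% to 93.7% at 8 hr. Of the sum of *Ptges*, *Ptges2* and *Ptges3*, *Ptges* took 34.7% to 39.8% at 0 hr, 74.2% to 80.8% at 4 hr and 79.2% to 80.7% at 8 hr. These are shares of mRNA and not of enzyme or product.

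**Figure D2:**
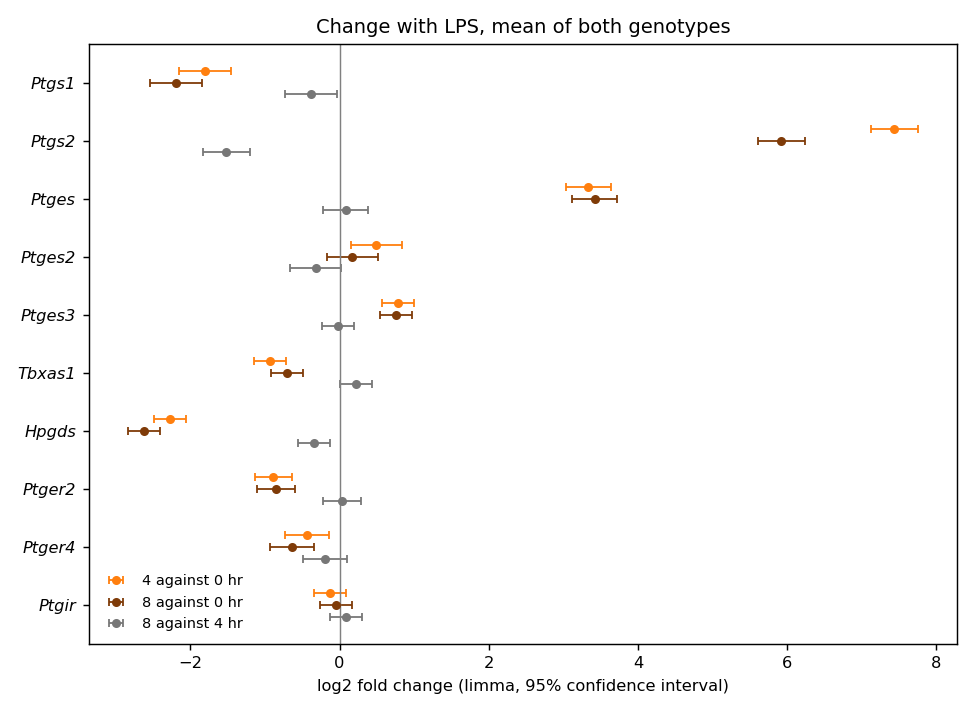
Log2 fold change with LPS (horizontal axis) of each member, averaged over WT and S513A cells, with points for the 3 time comparisons and bars for 95% confidence intervals from limma. *Ptgs2* lies at 7.44 and 5.92 at 4 and 8 hr and at -1.52 from 4 to 8 hr, *Ptges* lies at 3.34 and 3.42, and *Hpgds* and *Ptgs1* lie lowest.

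The receptors changed less than the enzymes that rose or fell most. *Ptger2* (EP2) was at 4.53 to 4.67 log2 CPM at 0 hr, 3.53 to 3.94 at 4 hr and 3.59 to 3.95 at 8 hr. Its log2 fold change was -0.89 ± 0.11 (SE) after 4 hr and -0.86 ± 0.11 (SE) after 8 hr (limma adjusted p = 6.1e-05 and 0.00011), with no overlap between rest and stimulation.
*Ptger4* (EP4; Entrez gene 19219, chromosome 15, 5233399 to 5244187, - strand) was at 3.80 and 3.76 log2 CPM in WT and at 3.08 and 3.29 in S513A cells at 0 hr. The values were 3.04 and 3.47 in WT and 2.84 and 2.84 in S513A cells at 4 hr, and 3.02 and 2.90 in WT and 2.52 and 2.93 in S513A cells at 8 hr. The latest libraries all lay below every resting one, and the log2 fold change at 8 hr was -0.64 ± 0.13 (SE) (limma adjusted p = 0.0025). At 4 hr it was -0.44 ± 0.13 (SE) (limma adjusted p = 0.017), and this call was lost without WT 0 hr replicate 1 (0.0504), WT 4 hr replicate 1 (0.0558) or S513A 0 hr replicate 2 (0.0651). Exons of *Ptger4* share 82 bases with *Ttc33* on the opposite strand, whose reads cannot be told apart where the counting ignores strand. They also share 1015 bases with *Gm15937*, a processed pseudogene. Exons of *Ptger2* share 246 bases with *Gm17173* and 144 with *Gm49364*. Those of *Ptgs1* share 148 with *Gm43621*, and those of *Tbxas1* 144 with *Gm42962*. All of these Gm genes lie on the opposite strand and were not listed.
*Ptgir*, the prostacyclin receptor, was at 6.31 to 6.57 log2 CPM at 0 hr, 6.09 to 6.52 at 4 hr and 6.21 to 6.58 at 8 hr, and the times overlapped. Its 95% confidence interval ran from -0.35 to 0.09 at 4 hr and from -0.26 to 0.17 at 8 hr (limma adjusted p = 0.28 and 0.75). Under quantile normalization the 4 hr difference was -0.36 and was called (limma adjusted p = 0.010).

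Per kilobase of exon, the order of the members at rest was *Ptgir* at 26.0 CPM per kilobase, *Ptges3* at 16.6, *Hpgds* at 14.7, and *Tbxas1* and *Ptges* at 12.0 each. They were followed by *Ptgs1* at 7.58, *Ptger2* at 4.66, *Ptges2* at 3.25, *Ptger4* at 1.72 and *Ptgs2* at 0.924. This order depends on the joined exon lengths, which ran from 2217 bases for *Ptges3* to 9094 for *Tbxas1*. It need not be the order of mRNA molecules, since a gene with many annotated exons is placed lower. The ranges over the 4 libraries overlapped for *Ptges3* and *Hpgds*, for *Hpgds* and *Ptges*, and for *Tbxas1* and *Ptges*, but not for *Ptgs2* and *Ptger4*, at the low end, nor for *Ptgir* and *Ptges3*, at the high end. At 4 hr *Ptgs2* came first at 157.5 CPM per kilobase and *Ptges* next at 121.5, with overlapping ranges. At 8 hr *Ptges* at 128.2 lay above *Ptgs2* at 57.0, with no overlap, and *Ptger4* was last at both times.

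**Figure D3:**
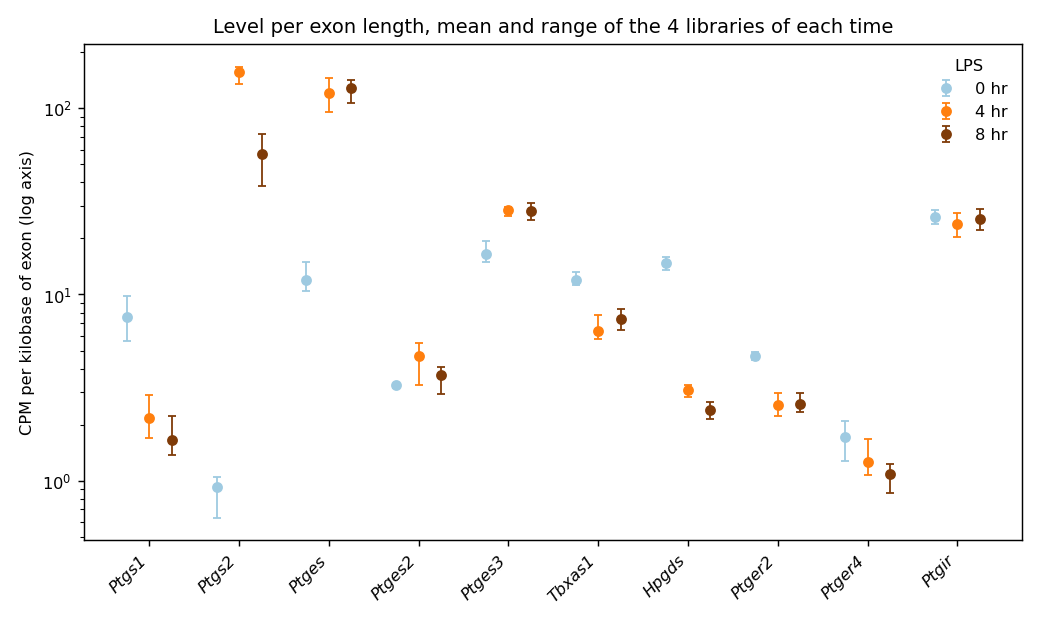
CPM per kilobase of exon (vertical log axis, all annotated exons of a gene joined) of the 10 members at 0, 4 and 8 hr of LPS. Points show the mean and bars the range of the 4 libraries of each time, WT and S513A together. *Ptgs2* moves from the lowest place at 0.924 to the highest at 157.5, and *Hpgds* from 14.7 to 2.40 at 8 hr.

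The S513A cells were then compared with WT cells at each time, which asks whether the changed serine of Regnase-1 alters these mRNAs. By limma with Benjamini-Hochberg adjustment, 0 of 10 members were called at any time. Of all genes tested, 0.0337% were called in unstimulated cells, 0.0168% at 4 hr and 0.0337% at 8 hr. Averaged over the times, 0 members and 0.0673% of genes were called. At an unadjusted p under 0.05 there were 2, 2, 1 and 3 members, beside 949, 833, 1487 and 798 of 11885 genes. The S513A libraries lay wholly on one side of the WT libraries for 4 members at 0 hr, 3 at 4 hr and 4 at 8 hr, where 57.5%, 28.2% and 53.6% of all genes did so, so the members' share lay below that of all genes at 0 and 8 hr and near it at 4 hr.

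The 3 members with the lowest p were *Ptgs2*, *Ptgs1* and *Ptger4*. Both S513A libraries of 8 hr lay above both WT libraries for *Ptgs2*, with a log2 difference of 0.79 ± 0.20 (SE; 95% confidence interval 0.34 to 1.23; limma adjusted p = 0.40). Averaged over the times, *Ptgs2* differed by 0.41 ± 0.12 (SE) (limma adjusted p = 0.47), with overlapping libraries at 0 and 4 hr. *Ptgs1* was lower in both S513A libraries at 0 and 4 hr, and its mean difference was -0.44 ± 0.13 (SE) (limma adjusted p = 0.49). For *Ptger4*, both S513A libraries were also lower at 0 and 4 hr, and the mean difference was -0.42 ± 0.11 (SE) (limma adjusted p = 0.42). At 0 hr its difference of -0.59 ± 0.19 (SE) had an adjusted p of 0.59 in the limma model of all libraries and 0.0493 when only the 4 libraries compared were fitted.

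For the other 7 members, the difference averaged over the times lay between -0.16 for *Tbxas1* and 0.08 for *Ptges3*. Of these, *Hpgds* had a 95% confidence interval from -0.18 to 0.17 and *Ptgir* one from -0.15 to 0.20, while that of *Ptges* ran from -0.35 to 0.14 (limma). Intervals of this width leave room for differences of up to about these bounds.

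**Figure D4:**
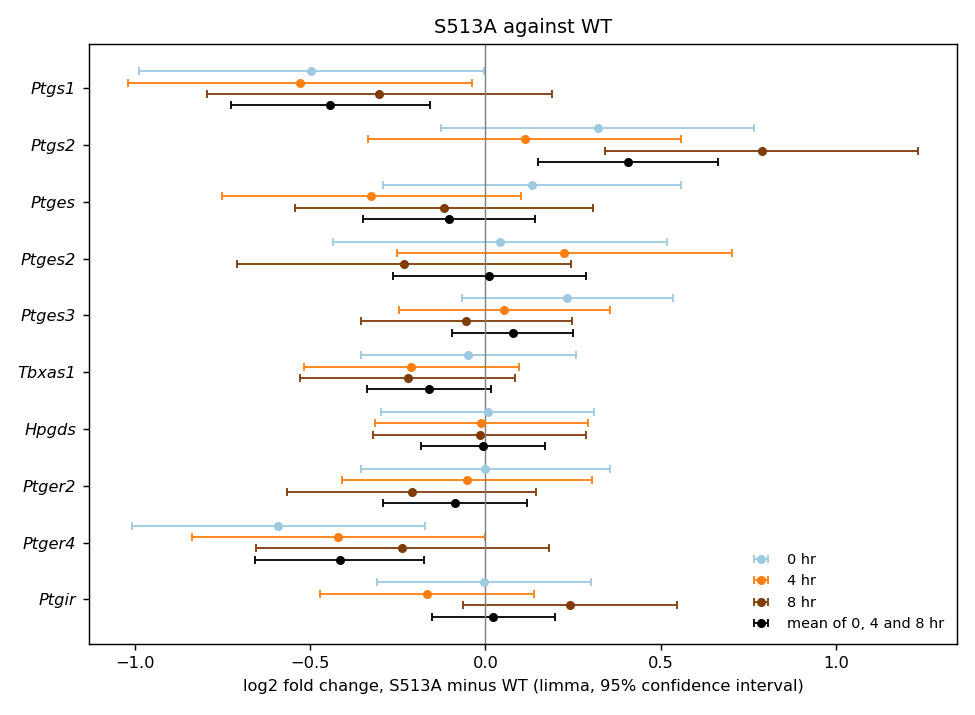
Log2 difference S513A minus WT (horizontal axis) of each member at 0, 4 and 8 hr and averaged over the times, with points for estimates and bars for unadjusted 95% confidence intervals from limma. The mean lies at 0.41 for *Ptgs2*, -0.44 for *Ptgs1* and -0.42 for *Ptger4*, none of which was called after adjustment, and near 0 for most others.

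The response to LPS itself was compared between genotypes by an interaction term. No member and no gene was called at 4 or at 8 hr (0% of 11885 in each, limma with Benjamini-Hochberg adjustment), and 0 members had an unadjusted p under 0.05 at either time, beside 144 and 2405 genes. The rise of *Ptgs2* at 4 hr was 186-fold in WT (95% confidence interval 137 to 254) and 161-fold in S513A cells (118 to 220). At 8 hr it was 51.5-fold in WT (37.8 to 70.2) and 71.2-fold in S513A cells (52.3 to 97.0). In a comparison chosen after the values were seen, the log2 change from 4 to 8 hr was -1.85 in WT and -1.18 in S513A cells. That difference of 0.68 ± 0.29 (SE) had an unadjusted p of 0.038 and was not called (limma adjusted p = 0.26), nor was any other gene in that comparison (0%). It was the 1 member with an unadjusted p under 0.05 there, beside 2243 genes. Without WT 4 hr replicate 1, *Ptges2* was called in it (-0.83, limma adjusted p = 0.038).

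The rest of the pathway was followed through 44 further gene names, of which 21 were listed and 19 tested. At 4 hr 4 of the 19 were higher and 7 lower, at 8 hr 6 were higher and 7 lower, and from 4 to 8 hr 9 were higher and 1 lower (limma adjusted p under 0.05). Over all genes tested, 29.1% were higher and 26.7% lower at 4 hr, 24.5% and 21.6% were so at 8 hr, and 12.8% and 12.8% from 4 to 8 hr. The count of 10 from 4 to 8 hr was 5 without WT 8 hr replicate 2, 4 without S513A 4 hr replicate 1, 5 without S513A 8 hr replicate 2 and 6 when only the libraries compared were fitted. The median absolute log2 fold change of the 19 was 0.51 at 4 hr, 0.69 at 8 hr and 0.47 from 4 to 8 hr, against 0.42, 0.33 and 0.23 over all genes. Averaged over the times, 0 of 19 were called between the genotypes by limma, and 2 had an unadjusted p under 0.05, beside 798 of 11885 genes. In the genotype by LPS interaction at 8 hr, 0 of 19 were called by limma and 6 had an unadjusted p under 0.05, with a median log2 difference of -0.48, beside 2405 genes and a median of 0.01 over all genes. From 4 to 8 hr, 0 were called in the interaction and 6 had an unadjusted p under 0.05, with a median of -0.40, beside 2243 genes and a median of 0.01. At 4 hr it was 0 of 19 by either count, beside 144 genes.

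Of 8 genes named as phospholipases A2 and tested, 2 were higher and 2 lower at 4 hr, near the shares of 29.1% and 26.7% over all genes. At 8 hr 3 were higher and 2 lower (24.5% and 21.6% over all genes). *Pla2g4a*, the cytosolic phospholipase that supplies the cyclooxygenases, had a log2 fold change of 1.09 ± 0.10 (SE) after 4 hr and 1.44 ± 0.10 (SE) after 8 hr (limma adjusted p = 3.8e-06 and 5.1e-07). *Pla2g15*, a lysosomal phospholipase, fell, with log2 fold changes of -2.29 and -1.62 (limma adjusted p = 6.8e-09 and 1.4e-07). *Pla2g16*, an adipose tissue phospholipase, had log2 fold changes of 0.68 and 1.56 (limma adjusted p = 0.030 and 0.00027). *Pla2g2e* was called lower at 4 hr, but its mean log2 CPM was 0.63 at 0 hr and -1.88 at 4 hr, near the floor, and no fold is given.

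Of the 4 other terminal synthases tested, 0 were higher at either time, while 2 were lower at 4 hr and 3 at 8 hr, against 26.7% and 21.6% of all genes lower and 29.1% and 24.5% higher. *Ptgis*, the prostacyclin synthase, was at a mean log2 CPM of 3.19 ± 0.29 (SD, n = 4) at 0 hr, 2.32 ± 0.38 after 4 hr of LPS and 1.57 ± 0.34 after 8 hr, and its log2 fold change was -0.87 after 4 hr and -1.63 after 8 hr (limma adjusted p = 0.0011 and 1.5e-05). Fibroblasts and mesothelial cells also express it, and 5 listed markers of these cells summed to 10.6 to 40.1 CPM at 0 hr, 9.00 to 48.9 CPM at 4 hr and 8.17 to 32.1 CPM at 8 hr, with overlapping ranges. Nearly all of this sum was *Col1a1* and *Col3a1*. The mesothelial markers *Msln*, *Upk3b* and *Lrrn4* were each at 0.0419 to 1.15 CPM, too low to follow. The part of these cells in the fall of *Ptgis* was not tested. *Cbr1*, a carbonyl reductase acting on prostaglandin E2, had a log2 fold change of -1.06 after 4 hr and -0.59 after 8 hr (limma adjusted p = 4.3e-05 and 0.0034). *Fam213b*, a prostaglandin F synthase, was at -0.68 at 8 hr (limma adjusted p = 0.027).

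Of 5 genes for breakdown and transport, 2 were higher and 1 lower at 4 hr (29.1% and 26.7% over all genes), and 3 were higher and 1 lower at 8 hr (24.5% and 21.6%). *Abcc4* encodes a transporter that exports prostaglandin E2, and its log2 fold change was 0.56 ± 0.13 (SE) after 4 hr and 1.23 ± 0.13 (SE) after 8 hr (limma adjusted p = 0.0034 and 1.6e-05). Among the prostaglandin reductases, *Ptgr1* rose by 0.69 at 8 hr (limma adjusted p = 0.0071) and *Zadh2* by 0.37 and 0.63 at 4 and 8 hr (limma adjusted p = 0.0019 and 5.4e-05). *Ptgr2*, of the same family, fell, with log2 fold changes of -1.16 and -0.93 (limma adjusted p = 5.0e-07 and 3.8e-06).

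Of 7 other receptor-related genes, 2 were listed and tested, and 2 were lower at 4 hr and 1 at 8 hr (26.7% and 21.6% over all genes). *Ptger1* (EP1) had a log2 fold change of -0.49 ± 0.10 (SE) after 4 hr and 0.03 after 8 hr (limma adjusted p = 0.0020 and 0.82). *Ptgfrn*, which encodes a protein associated with the prostaglandin F receptor, was lower by -1.05 and -0.91 (limma adjusted p = 2.5e-06 and 1.1e-05).

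**Figure D5:**
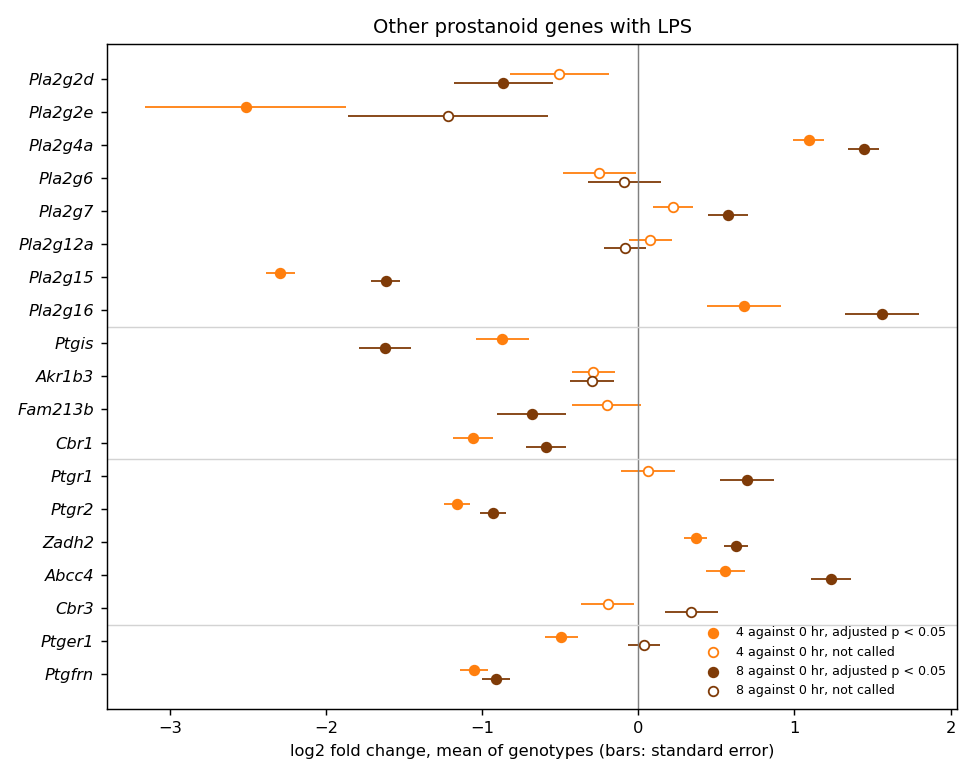
Log2 fold change with LPS (horizontal axis) of the 19 other prostanoid genes tested, averaged over genotypes, with bars for standard errors, filled points for an adjusted p under 0.05 (limma) and grey lines between phospholipases, other synthases, breakdown and transport genes, and receptor genes. *Pla2g4a* lies at 1.09 and 1.44 and *Abcc4* at 0.56 and 1.23, while *Pla2g15* lies at -2.29 and -1.62.

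The genes outside the members whose log2 values were most like those of *Ptgs2* over the 12 libraries were *Trim30d*, *Tnip1*, *Pde4b*, *Rassf4* and *Jak2*, with Pearson's r of 0.998 to 0.997. Their log2 fold changes at 4 hr were smaller than that of *Ptgs2*, from 2.49 for *Tnip1* to 3.40 for *Trim30d*. For *Ptgs1* they were *Nxpe5*, *Ssbp4*, *Arsg*, *Alox5* and *Mmp19*, with r of 0.980 to 0.977, and *Alox5*, which encodes the 5-lipoxygenase that turns the same arachidonic acid into leukotrienes, had a log2 fold change of -1.50 at 4 hr and -2.11 at 8 hr. The 12 libraries fall into separate times, so these r values mostly reflect shared differences between times and are given as a description.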

How the data were processed

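The 12 libraries of WT and S513A PECs (2 per group, by the submitters' labels) were re-analysed. The authors mapped reads to mm10 with HISAT2 in unstranded mode and counted them with featureCounts 1.6.3, per the submitters' processing notes. The strand setting of the counting and the program behind the normalization are not given in the sources used here. The authors deposited log2 CPM values in which each count had 0.5 read added and the library size was scaled by a factor of 0.877 to 1.15. Multiplying back gave whole reads for every value, with a largest departure of 0.00144 read. Floors in reads cover counting error only.

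The 11885 genes that reached 1 CPM in 2 or more libraries were tested. Differences were tested with limma 3.58.1 in R 4.3.3 on the log2 values, by a model of 6 group means with 6 residual degrees of freedom and a prior trend on the mean level. Tests were two-sided, with Benjamini-Hochberg adjustment over all genes tested and a threshold of 0.05. A fold change is on the log2 scale with 0.5 read added. The fit was tested on simulated data. Exon lengths and 3′ UTRs came from GENCODE M21, and positions and promoters from RefSeq GRCm38.p6, with 10 of 10 members matched. The exon length of a gene joined the exons of all its annotated transcripts. Motifs were searched by letters. Tables used Python 3.11.15 with pandas 2.3.3, and plots matplotlib 3.10.9.

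The members and lists were chosen with earlier results of these data known. Named were all 10 members, *Zc3h12a*, at most 4 called genes per list of other prostanoid genes (those with the largest change), and the 5 genes most like *Ptgs1* and *Ptgs2*. Lists of markers of 10 cell types were examined. B cell markers (4 of 4 listed) summed to 3.44 to 8.87 CPM over all libraries, resident peritoneal macrophage markers (3 of 3) to 107 to 208 CPM, dendritic cell markers (3 of 4) to 2.27 to 5.75 CPM and neutrophil markers (3 of 7) to 489 to 829 CPM, and T cell markers (0 of 3) were not listed. These sums hide genes that moved apart from 0 to 8 hr. The resident sum was mostly *Fcna*, while *Timd4* rose (6.63 to 11.3, then 18.8 to 38.7 CPM) and *Gata6* fell (2.47 to 5.12, then 0.617 to 1.76 CPM). The neutrophil sum was mostly *Mmp8*, which fell (625 to 725, then 329 to 491 CPM), while *Csf3r* rose (67.9 to 83.1, then 107 to 128 CPM). Of the dendritic cell markers, *Clec9a* fell and *Flt3* rose. Alternatives were no filter, a stricter one (mean of 5 CPM or more), 1 CPM added as a pseudocount, median-ratio scaling, quantile normalization, a prior that was robust or had no trend, voom weights on the recovered reads, a replicate block, a correlation within genotype and number, only the libraries compared, and each library left out in turn.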

Additional observations from a re-analysis of the deposited data

How the results depend on the processing

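Over the 2290 recomputed log2 fold changes of the members, 2179 kept their direction and their side of the threshold, 10 lost a call and 6 gained one. Another 95 changed sign, of which 0 were called under either setting. In many of the 2290 the direction could not change, since the filter, prior, block and correlation settings leave the estimate as it was. Fitting only the libraries compared, or leaving out a library outside the comparison, does so too. The tally is therefore no measure of how stable the directions are. When only the libraries compared were fitted, 1 member was called from 4 to 8 hr in place of 2, 1 member (*Ptger4*) was called between genotypes at 0 hr in place of 0, and 6 other prostanoid genes were called from 4 to 8 hr in place of 10. The causes were not tested. With each library left out in turn, the members called from 4 to 8 hr numbered 1 to 3, those in the difference between genotypes of that change 0 to 1, and the other prostanoid genes called from 4 to 8 hr 4 to 12. The members called numbered 8 to 9 at 4 hr and 8 in every case at 8 hr, and between genotypes 0 at each time. Quantile normalization shifted the median of all genes by at most 0.08 (log2). The correlation of the deviations of same-numbered libraries was -0.41 to 0.42 over 15 pairs of groups and above 0.1 in 5 of them. Within S513A cells it was 0.15, 0.09 and 0.42, and within WT cells -0.03, 0.08 and -0.10. Most pairs of groups cross the genotypes, so whether the numbers pair the libraries of a genotype is not known. With a replicate block, the members called were 9 at 4 hr, 8 at 8 hr and 2 from 4 to 8 hr, as without it, and 0 between genotypes, while 6462 of all genes were called at 4 hr in place of 6635. Precision is limited by 2 libraries per group and, for *Ptgs2* at rest, by 37 to 68 reads per library.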
